A study of Homo sapiens with 12 samples.

Results

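The mitochondrial genome transcripts described here are the genes whose GENCODE name starts with MT- and which lie on chrM. They number 37 of the 58037 genes in the count table and comprise 13 coding genes, 2 rRNA genes and 22 tRNA genes. All 37 identifiers carried the same version in the table and in GENCODE v44, from which names and positions in hg38 were taken. The RNA-seq libraries were made from poly(A)-selected RNA of wild-type HCT116 cells, an epithelial line derived from a human colon tumour. Per the labels, 3 samples each had been exposed for 8 h to DMSO, to 10 μM Nutlin-3a, to 20 nM NVP-2 or to Nutlin-3a together with NVP-2. Nutlin-3a keeps MDM2 from binding p53, and NVP-2 inhibits CDK9, the kinase of P-TEFb. All samples thus share 1 established line, and no label gives another genotype.

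The 12 columns of the table held the same count for every gene, with 0 genes differing between any columns. They were therefore read as 1 HCT116 profile of unknown treatment, with a total of 22720718 counts, taken from the column named for the first DMSO sample. No comparison between treatments could be made from them, and there were no replicates. The 95% intervals given below are exact Poisson intervals for levels and Wilson intervals for shares. Those for ratios are normal intervals on the log scale, with the counts of both sides taken as Poisson and independent. With no replicate, all these intervals cover counting error only. They can be too narrow even for that, because reads without molecular identifiers are not independent molecules. The profile was epithelial by its markers, of which *KRT8* had 80391 counts, *KRT18* 34234 and *KRT19* 21926, whereas the intestinal markers *VIL1* and *LGALS4* had 4 counts each and *CDX2* 65. The 10 markers of blood, endothelium, fibroblasts, liver, muscle and erythroid cells held 297 counts in all, 199 of them on *COL1A1*, and *PTPRC* and *MYH7* were at 0.

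The human mitochondrial genome is a small circular DNA, present in many copies per cell, that encodes hydrophobic core subunits of the respiratory chain together with the rRNAs and tRNAs for their translation inside the organelle. Both of its strands are transcribed by the polymerase POLRMT into long precursors that carry many genes. The tRNAs, which sit between most of the other genes, are then cut out by RNase P and ELAC2, and this frees the rRNAs and mRNAs. Most of the mRNAs receive a short poly(A) tail, *MT-ND6* being the known exception, and the rRNAs carry short tails of adenosines. Genes on the plus strand of chrM are usually called heavy strand genes, after the strand that serves as their template, and those on the minus strand are called light strand genes.

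The genome leaves little room between these genes, which bears on how reads can be counted. Of its 16569 bp, 14285 lay in a gene of the plus strand and 1076 in a gene of the minus strand. The places where coding genes overlap on the same strand are printed below, from hg38 and 5′ to 3′, with the shared bases in capitals. *MT-ATP8* and *MT-ATP6* share 46 bases, *MT-ND4L* and *MT-ND4* share 7, and *MT-ATP6* and *MT-CO3* share 1. A read over these bases belongs to both genes.
MT-ATP8 and MT-ATP6, chrM:8515-8584, plus strand: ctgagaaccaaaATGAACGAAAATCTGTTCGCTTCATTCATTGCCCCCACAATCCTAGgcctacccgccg
MT-ND4L and MT-ND4, chrM:10745-10781, plus strand: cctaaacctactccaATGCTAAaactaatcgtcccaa
MT-ATP6 and MT-CO3, chrM:9192-9222, plus strand: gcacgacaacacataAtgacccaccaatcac

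The 3′ ends show where poly(A) addition meets the reading frame. Of the 13 coding genes, 6 had a length that is not a multiple of 3, so that the gene ends within a codon. Their last bases are printed with the incomplete codon in capitals. In each case these are T or TA, which the adenosines of the tail complete to a stop codon in the mature mRNA.
MT-ND1, chrM:4243-4262, plus strand: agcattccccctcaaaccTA
MT-ND2, chrM:5493-5511, plus strand: tttatactaataatcttaT
MT-CO3, chrM:9972-9990, plus strand: atctattgatgagggtctT
MT-ND3, chrM:10386-10404, plus strand: ggattagactgaaccgaaT
MT-ND4, chrM:12119-12137, plus strand: attaccgggttttcctctT
MT-CYB, chrM:15869-15887, plus strand: aaaatactcaaatgggccT

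The 37 mitochondrial genes held 2369795 counts, which is 10.4% of the profile's total (95% Wilson interval 10.42 to 10.44%). The coding genes accounted for 75.9% of these counts (75.89 to 76.00%), the rRNA genes for 23.99% (23.94 to 24.04%) and the tRNA genes for 0.0674% (0.0642 to 0.0708%). By counts, 7 of the 10 most abundant genes of the table were mitochondrial, namely *MT-RNR2*, *MT-CO1*, *MT-ND4*, *MT-CO3*, *MT-ATP6*, *MT-ND2* and *MT-CO2*. The other 3 were nuclear, *HSP90AB1* with 156785 counts, the processed pseudogene *EEF1A1P5* with 156254 and *HSP90AA1* with 152433. *EEF1A1*, the gene after which the pseudogene is named, had 120557 counts at rank 13. Whether the reads on *EEF1A1P5* come from *EEF1A1* was not tested. In a bulk profile, more mitochondrial genomes per cell cannot be told apart from more RNA per genome.

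Levels of different genes were compared as RPKM, that is, counts per 1000000 counts of the column (CPM) and per kilobase of annotated gene length. On this scale the rRNA and coding genes spanned from 1056 to 15290. No nuclear protein-coding gene had a higher RPKM than *MT-ND5*, the second lowest of the 13 coding genes, and 10 had a higher RPKM than *MT-ND6*. The highest nuclear protein-coding gene was *HSP90AB1*, which codes for a cytosolic chaperone, at an RPKM of 2316. The nuclear lengths are those of all annotated exons merged, 2980 bases for *HSP90AB1* and 2396 for *GAPDH*, which had an RPKM of 2110. This lowers the nuclear RPKM where only shorter transcripts are made, and the comparison was not made on transcript length. On effective length, that is, annotated length less the read length plus 1, *TMSB10*, which codes for an actin-binding protein, was the highest nuclear protein-coding gene at 2689 CPM per kilobase and was above *MT-ND5* at 2484. Of the 20 genes with the highest RPKM in the table, 14 were mitochondrial. Over all genes, *MT-ND5* had rank 18 and *MT-ND6* rank 51 by RPKM, so genes not annotated as protein-coding also lay above them.

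**Figure D1:**
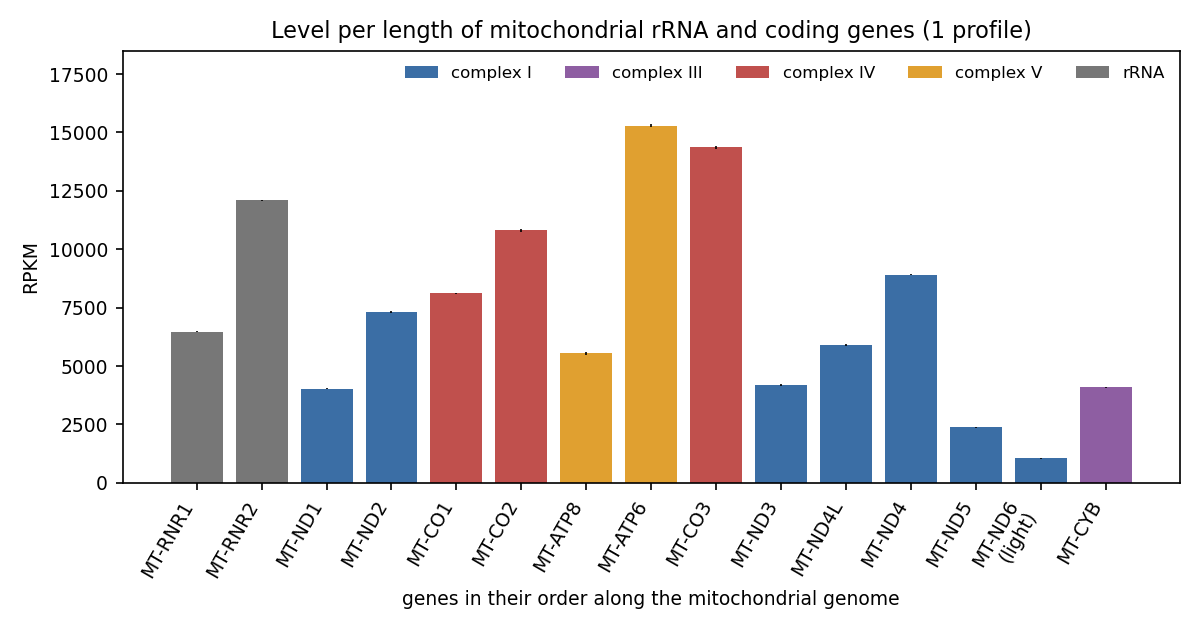
RPKM (vertical axis) of the 15 rRNA and coding genes of the mitochondrial genome in their order along chrM, coloured by complex, with exact Poisson 95% intervals as error bars. *MT-ATP6* at 15290 and *MT-CO3* at 14364 stand highest, and the light strand gene *MT-ND6* at 1056 lowest.

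Complex IV, the cytochrome c oxidase that passes electrons to oxygen, had 3 subunits encoded in the mitochondrial genome, all with high levels. *MT-CO1*, the catalytic subunit that binds the heme and copper centre where oxygen is reduced, had 284045 counts and an RPKM of 8107 (8078 to 8137). *MT-CO2*, which takes up electrons from cytochrome c, had 167963 counts and an RPKM of 10808 (10756 to 10860). *MT-CO3*, a core subunit without a redox centre, had 255872 counts and an RPKM of 14364 (14309 to 14420). The gene with the most counts of the 3 was therefore the lowest per length, and *MT-CO3* was 1.77-fold higher than *MT-CO1* (1.76 to 1.78).

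Complex V, the ATP synthase, has its proton channel subunit *MT-ATP6* and the small subunit *MT-ATP8* encoded here, and both are translated from the same mRNA. *MT-ATP6* had 236583 counts and the highest RPKM of the table, 15290 (15229 to 15352). *MT-ATP8* had 26060 counts and an RPKM of 5541 (5474 to 5609). Although they share a transcript, *MT-ATP6* was thus 2.76-fold above *MT-ATP8* (2.72 to 2.80) on annotated length. *MT-ATP8* spans 207 bases, of which 46 are the ones shared with *MT-ATP6* and printed above.

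Complex I, the NADH dehydrogenase that feeds electrons into the chain, has 7 subunits encoded in this genome, all of them in its membrane arm. Their levels ran from 1056 to 8918 RPKM with a median of 4178. *MT-ND4* with 279224 counts (RPKM 8918, 8885 to 8951) and *MT-ND2* with 172910 counts (RPKM 7303, 7269 to 7338) were the highest. *MT-ND4L*, which shares its mRNA with *MT-ND4*, had 39797 counts and an RPKM of 5898 (5840 to 5956), so that *MT-ND4* was 1.51-fold above it (1.496 to 1.528). *MT-ND3* had 32842 counts and an RPKM of 4178 (4133 to 4223), and *MT-ND1*, which follows the rRNA genes, had 87508 counts and an RPKM of 4029 (4002 to 4056). *MT-ND5*, the longest gene of the genome at 1812 bases, had 98083 counts and an RPKM of 2382 (2368 to 2397). *MT-ND4* was 3.74-fold above *MT-ND5* (3.72 to 3.77), although only 3 tRNA genes lie between them. *MT-ND6* had 12595 counts and an RPKM of 1056 (1038 to 1074), 2.26-fold below *MT-ND5* (2.21 to 2.30).

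Complex III, which passes electrons from ubiquinol to cytochrome c, has cytochrome b as its only subunit encoded here. *MT-CYB* had 106208 counts and an RPKM of 4097 (4072 to 4122), between those of *MT-ND3* and *MT-ND1*. Ordered by the median RPKM of their subunits, the complexes stood at 10808 for complex IV, 10416 for complex V, 4178 for complex I and 4097 for complex III. As complex V rests on 2 genes and complex III on 1, this order is a description of these genes. The places of complexes IV and V depended on the definition of length, as given below. By share of coding counts, complex I took 40.2% (40.1 to 40.2%), complex IV 39.3% (39.3 to 39.4%), complex V 14.6% (14.5 to 14.6%) and complex III 5.90% (5.87 to 5.94%).

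In the order of the 15 rRNA and coding genes by RPKM, the counting intervals of neighbours did not overlap in any of the 14 adjacent pairs. The closest were *MT-CYB* over *MT-ND1* at a ratio of 1.02 and *MT-ND3* over *MT-CYB* at 1.02. With no replicate, the spread between libraries is not known, and the counting intervals are too narrow to stand for it. Among the 12 heavy strand coding genes, RPKM had a Spearman rho of −0.21 with position along chrM, of −0.19 with gene length, of −0.0070 with GC content and of 0.36 with the share of 75-base windows that match a nuclear chromosome exactly. These are descriptions over 12 genes of the same library, which share precursor transcripts and, at the overlaps, reads.

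What counts as the length of a gene changed part of this order. A read of 75 bases, the length sequenced, can be assigned to a gene without doubt only if it touches no other gene of the same strand, and the start positions that allow this were counted for each gene. *MT-ATP8* had 88 such positions for its 207 bases, and *MT-ND4L* 216 for its 297. Per kilobase of these positions in place of annotated length, *MT-ATP8* reached 13034 CPM, 2.35 times its RPKM, and moved from place 10 to place 3 of the 15 genes. The ratio of *MT-ATP6* to *MT-ATP8* was then 1.43 (1.41 to 1.44), and that of *MT-ND4* to *MT-ND4L* 1.17 (1.16 to 1.18). Both pairs of genes with a common mRNA were thus closer to each other on this scale, without reaching the same level. *MT-ATP6*, *MT-CO3*, *MT-ND3*, *MT-ND5* and *MT-ND6* kept their places, 1, 2, 11, 14 and 15, under each of the 4 definitions of length. The sources used here do not say how reads touching more than 1 gene were treated.

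**Figure D2:**
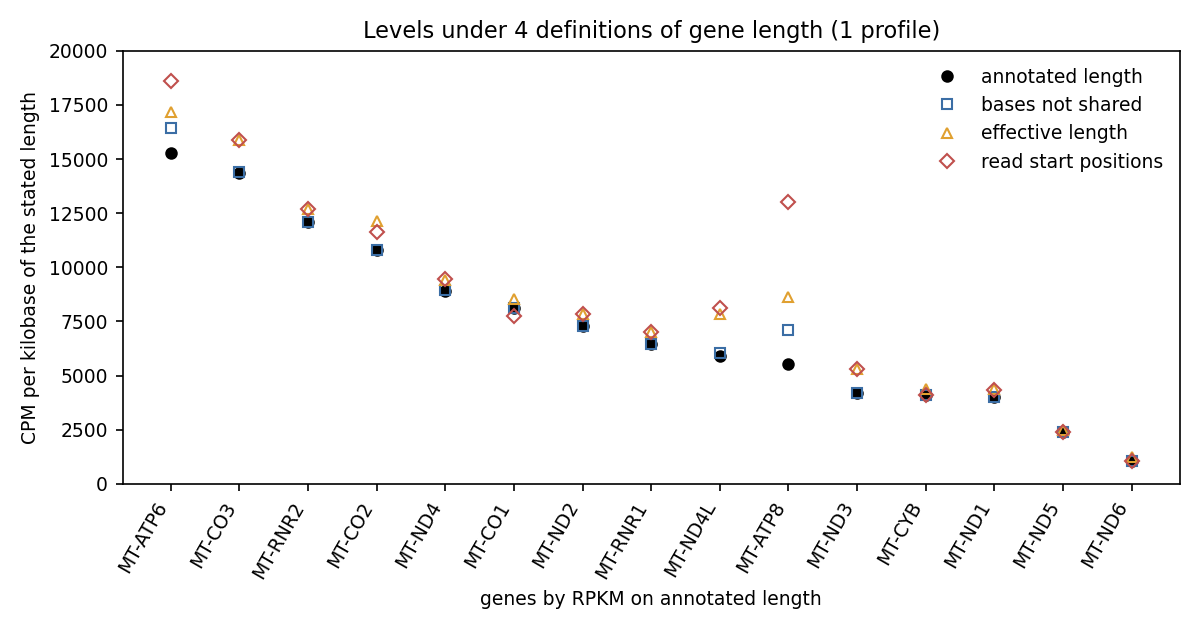
CPM per kilobase (vertical axis) of the 15 genes, ordered by RPKM, under 4 definitions of length: annotated length, bases not shared with another gene of the same strand, effective length (annotated length less the read length plus 1) and read start positions. *MT-ATP8* moves most, from 5541 to 13034, while *MT-ND5* and *MT-ND6* stay lowest.

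The rRNA genes code for the RNAs of the small (*MT-RNR1*) and the large (*MT-RNR2*) subunit of the mitochondrial ribosome. *MT-RNR2* had 428199 counts, more than any other gene of the table, and an RPKM of 12089 (12053 to 12125). *MT-RNR1*, which lies upstream of it with a tRNA gene between, had 140309 counts and an RPKM of 6473 (6439 to 6507). Per length, *MT-RNR2* was therefore 1.87-fold above *MT-RNR1* (1.86 to 1.88) and 3.00-fold above *MT-ND1* (2.98 to 3.02), the next coding gene downstream. *MT-RNR1* was below 6 of the 13 coding genes and *MT-RNR2* below 2. The authors also mapped the reads against human rRNA sequences, and whether these included the mitochondrial ones is not given in the sources used here. How poly(A) selection and this mapping step bear on both levels was not tested.

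Heavy strand genes had far more counts per kilobase among the coding genes, but this did not hold in the same way among the tRNA genes. The 28 heavy strand genes held 2356772 counts and the 9 light strand genes 13023, or 0.550% (0.540 to 0.559%) of the mitochondrial counts. Per kilobase of gene, these are 164361 and 12092 counts, respectively, a ratio of 13.6 (13.4 to 13.8). Between coding genes alone, where the light strand is represented by *MT-ND6* only, the ratio was 6.85 (6.73 to 6.97). Between tRNA genes alone it was 1.58 (1.41 to 1.76), and this rested on *MT-TL1*, without which the ratio turned to 0.81 (0.72 to 0.92). Over the 8 heavy and 8 light strand tRNA genes with at least 1 read start position, as defined above, the ratio per position was 3.59 (3.20 to 4.02), and 1.28 (1.11 to 1.48) without *MT-TL1*. *MT-ND6* held 12595 of the 13023 light strand counts, so the ratio over all genes mainly compares this gene with the heavy strand rRNA and coding genes. *MT-ND6* is also the known exception to the poly(A) tailing of the mRNAs, and these libraries were poly(A)-selected. How this selection bears on the strand ratios was not tested.

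The 22 tRNA genes held few counts, and 17 of them had at least 10. They are between 59 and 75 bases long, and together they held 1597 counts, with a median of 31.5 per gene. *MT-TL1*, the tRNA for leucine that lies between *MT-RNR2* and *MT-ND1*, had 613 counts, 38.4% of all tRNA counts (36.0 to 40.8%). *MT-TV*, the valine tRNA between the rRNA genes, had 202 counts, and *MT-TI* for isoleucine and *MT-TM* for methionine, which both lie between *MT-ND1* and *MT-ND2*, had 121 and 113. The most counted of the 22, *MT-TL1*, reached an RPKM of 360, or 0.0298 of that of its neighbour *MT-RNR2*. This ratio depended on the definition of length, as it was 0.709 per read start position, of which *MT-TL1* has 3, and 2.13 on effective length, which is 1 base for this gene.

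At the low end, *MT-TR* for arginine and *MT-TS2* for serine had 0 counts. At this depth, the exact Poisson interval of a count of 0 reaches up to 0.162 CPM, or 3.69 counts. *MT-TL2*, the second tRNA for leucine, had 1 count, *MT-TW* for tryptophan 2 and *MT-TH* for histidine 7, and *MT-TG* for glycine had 10. The remaining heavy strand tRNA genes had 42 counts for *MT-TT*, 28 for *MT-TF*, 18 for *MT-TK* and 12 for *MT-TD*, which carry threonine, phenylalanine, lysine and aspartate. The 14 heavy strand tRNA genes had between 0 and 613 counts with a median of 15. Over the 8 of them with at least 1 read start position, counts ran from 2 to 613 with a median of 35. The 8 light strand tRNA genes, all with such positions, were more even, between 15 and 100 counts with a median of 51. From the highest, they were *MT-TC* (cysteine) with 100 counts, *MT-TE* (glutamate) with 77, *MT-TA* (alanine) with 73, *MT-TQ* (glutamine) with 58, *MT-TS1* (serine) with 44, *MT-TN* (asparagine) with 35, *MT-TP* (proline) with 26 and *MT-TY* (tyrosine) with 15.

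The sequences of the most counted tRNA gene, of the gene between the rRNAs, of both genes at 0 and of the gene with 2 counts are printed below. They carry no capitals, since no part is singled out, and the CCA end of a mature tRNA is added after transcription and is not encoded.
MT-TL1, chrM:3230-3304, plus strand, 613 counts: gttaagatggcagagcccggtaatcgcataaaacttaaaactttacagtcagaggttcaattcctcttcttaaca
MT-TV, chrM:1602-1670, plus strand, 202 counts: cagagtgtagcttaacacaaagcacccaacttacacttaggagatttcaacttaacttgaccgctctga
MT-TR, chrM:10405-10469, plus strand, 0 counts: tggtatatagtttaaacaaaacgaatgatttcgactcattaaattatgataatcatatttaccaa
MT-TS2, chrM:12207-12265, plus strand, 0 counts: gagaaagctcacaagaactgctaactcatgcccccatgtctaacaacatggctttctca
MT-TW, chrM:5512-5579, plus strand, 2 counts: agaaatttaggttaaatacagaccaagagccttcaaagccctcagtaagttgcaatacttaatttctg

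Both genes at 0 abut other genes of their strand on either side, *MT-TR* between *MT-ND3* and *MT-ND4L* and *MT-TS2* between *MT-TH* and *MT-TL2*. For 6 of the 22 tRNA genes, *MT-TV*, *MT-TG*, *MT-TR*, *MT-TH*, *MT-TS2* and *MT-TL2*, there was no start position from which a 75-base read touches that gene alone. These 6 genes had between 0 and 202 counts with a median of 4, and the other 16 between 2 and 613 with a median of 43. All 8 light strand tRNA genes had such positions, between 22 and 146. *MT-TV* had 202 counts and *MT-TL1* 613 with 0 and 3 such positions, respectively, whereas *MT-TW* had 68 positions and 2 counts, so the positions alone did not order the genes. The part of poly(A) selection, of read length, of size selection and of the assignment of reads in these counts was not tested.

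**Figure D3:**
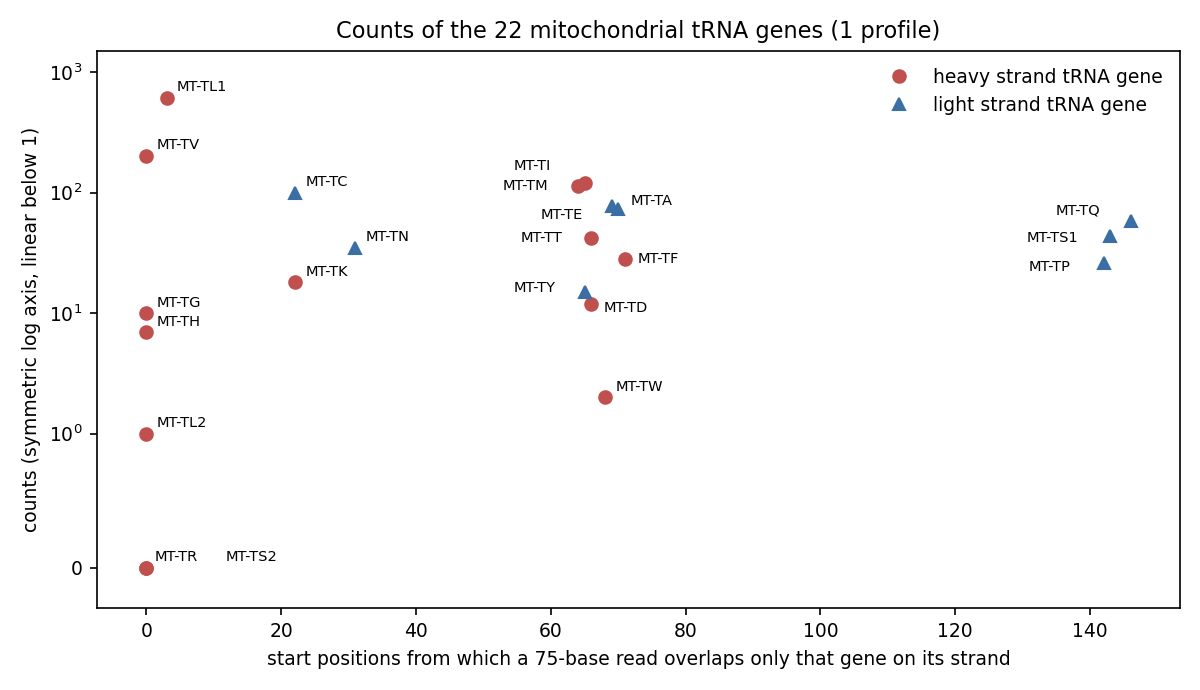
Counts (vertical axis, symmetric log scale, linear below 1) of the 22 tRNA genes against the number of start positions from which a 75-base read overlaps only that gene on its strand (horizontal axis). *MT-TR* and *MT-TS2* lie at 0 counts and 0 positions, *MT-TL1* at 613 counts and 3 positions, and the light strand genes between 15 and 100 counts.

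Each respiratory complex joins mitochondrial subunits with a larger number of nuclear ones, except complex II, which is wholly nuclear. In complex I, 7 nuclear core subunits had a median RPKM of 10.6 against 4178 for the mitochondrial subunits, with *NDUFV1* at 4768 counts and *NDUFS1* at 2654. The median was 49.7 over 6 nuclear subunits of complex III, with the most counts on *CYC1* at 9656, *UQCRC1* at 5623 and *UQCRB* at 5617. It was 92.1 over 10 of complex IV, with the most counts on *COX4I1* at 10669, *COX7C* at 5037 and *COX6B1* at 4094. Over 12 of complex V it was 73.6, with the most counts on *ATP5F1B* at 29723, *ATP5F1A* at 18552 and *ATP5PB* at 7317. Per length the order can differ, as *ATP5PB* at an RPKM of 103 was above *ATP5F1A* at 74.9. The median of the mitochondrial subunits was thus between 82.4-fold (complex III) and 396-fold (complex I) that of the nuclear ones. The nuclear lengths are those of all annotated exons merged, up to 12600 bases for *UQCRB*, which lowers the nuclear RPKM where only shorter transcripts are made, whereas the mitochondrial genes have no introns. The lowest mitochondrial subunit, *MT-ND6*, was above the highest nuclear one listed, *ATP5F1B* with an RPKM of 585. The 4 subunits of complex II, which have no mitochondrial partner, had a median of 42.3, with *SDHA* at 3487 counts, *SDHB* at 3231 and *SDHC* at 2980. Among all 8754 protein-coding genes with an RPKM of at least 1, the median was 6.03.

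**Figure D4:**
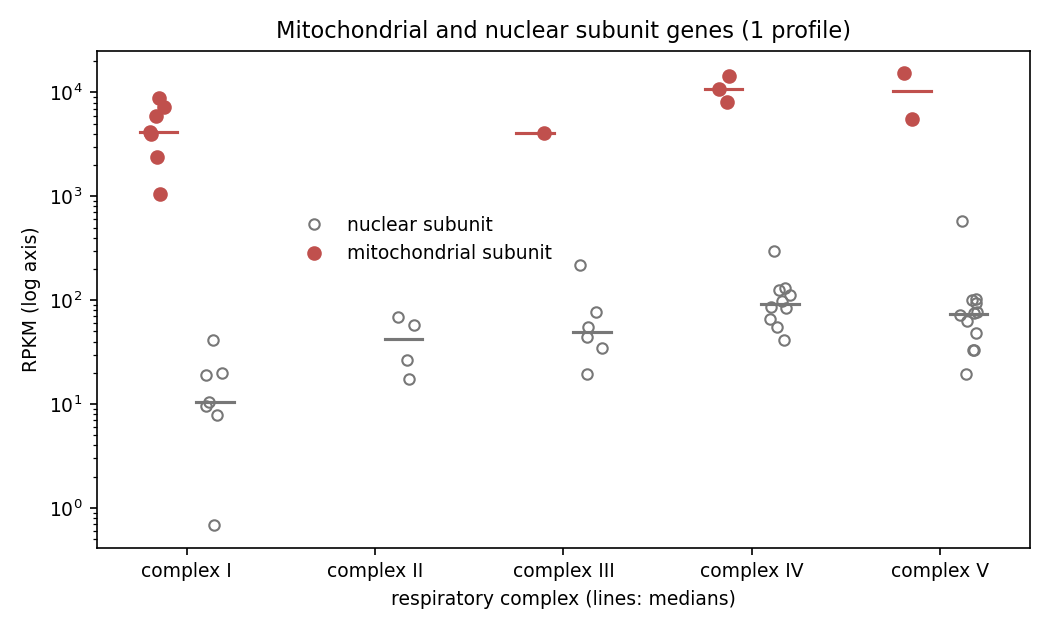
RPKM (vertical axis, log scale) of mitochondrial (filled) and nuclear (open) subunit genes by respiratory complex, with a line at each median. The mitochondrial medians lie at 4178, 4097, 10808 and 10416 for complexes I, III, IV and V, against 10.6, 49.7, 92.1 and 73.6 for the nuclear ones.

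The nuclear genes that make and process the mitochondrial transcripts were all detected, with 0 of the 43 listed genes at 0 counts. The 9 genes of mitochondrial transcription had a median RPKM of 6.74. Those with the most counts were *POLRMT* with 5034, *TFAM*, which binds the promoters and packages the DNA, with 1471, and the topoisomerase gene *TOP1MT* with 1245. Of the 6 genes of mitochondrial DNA replication, the highest were *SSBP1*, a single-strand binding protein, with 3137 counts, the helicase gene *TWNK* with 2771 and the nuclease gene *MGME1* with 1412. Among the 28 genes of RNA processing, stability and decay, which had a median RPKM of 7.63, *LRPPRC* had 9531 counts, *ELAC2* 5115 and *GRSF1* 4493. LRPPRC stabilizes mitochondrial mRNAs, ELAC2 cuts the 3′ ends of tRNAs, and GRSF1 binds RNA in the granules where precursors are processed. The 43 genes had RPKM values between 0.258 and 43.8, all below that of every mitochondrial rRNA and coding gene.

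Pieces of the mitochondrial genome have been copied into nuclear chromosomes, and such copies can take reads that belong to mitochondrial genes, or the reverse. The table held 399 nuclear pseudogenes named after the 13 coding genes, of which 51 had at least 1 count and 348 none. Together they had 79921 counts, or 0.352% of the total (0.349 to 0.354%). Of these, 98.6% fell on 7 pseudogenes in a row on chromosome 1, between 629062 and 634922. *MTCO1P12* had 42644 counts, *MTATP6P1* 25782, *MTND2P28* 7297, *MTND1P23* 1563 and *MTCO3P12* 892. These 5 copies were identical to their mitochondrial genes in 98.6%, 98.5%, 98.4%, 96.5% and 98.2% of aligned positions, respectively.

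A 75-base stretch of *MT-CO1* and of its chromosome 1 copy is printed below, and likewise of *MT-CO3* and its copy, to show how few bases separate them. The differing bases are in capitals, and each stretch is the one with the most differences in the longest gap-free part of the aligned pair. Of *MTCO1P12*, 36.6% of all 75-base windows were the same, base for base, as a window of the mitochondrial genome.
MT-CO1, chrM:6192-6266, plus strand: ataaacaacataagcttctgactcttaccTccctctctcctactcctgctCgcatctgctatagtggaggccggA
MTCO1P12, chr1:631362-631436, plus strand: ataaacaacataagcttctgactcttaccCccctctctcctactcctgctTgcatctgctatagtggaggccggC
MT-CO3, chrM:9474-9548, plus strand: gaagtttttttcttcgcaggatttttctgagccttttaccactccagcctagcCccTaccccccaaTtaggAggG
MTCO3P12, chr1:634643-634717, plus strand: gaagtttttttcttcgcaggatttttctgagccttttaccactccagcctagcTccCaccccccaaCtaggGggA

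Of the 16495 windows of 75 bases on chrM, 2383 had an exact match in a nuclear chromosome, 1970 of them on chromosome 1. The share of a gene's windows with such a match was 36.6% for *MT-CO1*, 34.4% for *MT-ND2*, 28.4% for *MT-RNR1*, 28.01% for *MT-ATP6*, 17.1% for *MT-ND1* and 14.9% for *MT-CO3*. It was 0% for *MT-ATP8*, *MT-ND3*, *MT-ND4L*, *MT-ND4* and *MT-CYB*. Relative to the mitochondrial gene, the counts on all its named copies were 15.1% for *MT-CO1*, 10.9% for *MT-ATP6*, 4.22% for *MT-ND2*, 1.79% for *MT-ND1* and 1.48% for *MT-ATP8*, and at most 0.358% for the other 8. With the copies' counts added, *MT-CO1* rose from an RPKM of 8107 to 9331 and passed *MT-ND4*, which went from 8918 to 8934, and *MT-ND1* at 4101 passed *MT-CYB* at 4099. Whether the reads on the copies come from mitochondrial RNA was not tested.

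**Figure D5:**
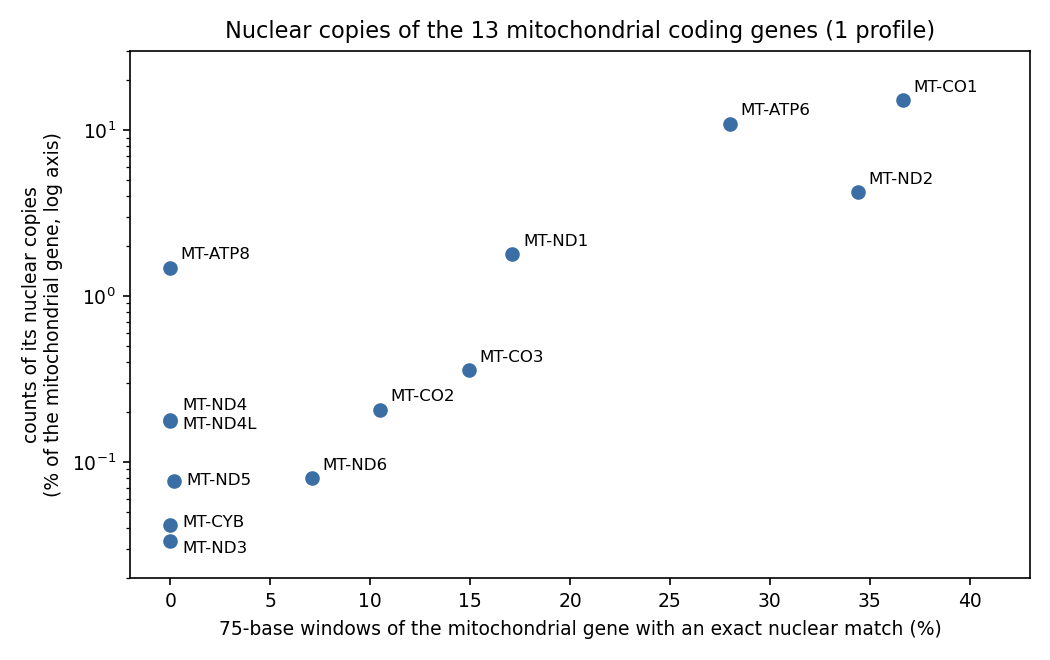
Counts on the nuclear copies of each of the 13 coding genes, as a percentage of the mitochondrial gene's own counts (vertical axis, log scale), against the percentage of the gene's 75-base windows with an exact match in a nuclear chromosome (horizontal axis). *MT-CO1*, *MT-ATP6* and *MT-ND2* stand at 15.1, 10.9 and 4.22%, and *MT-ATP8* at 1.48% without a matching window.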

How the data were processed

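PolyA-selected, strand-specific libraries were sequenced as single-end reads of 75 bases. According to the methods, the authors mapped reads to hg38 and human rRNA sequences with ContextMap 2.7.9 using BWA. They deposited raw counts per gene, made strand-specifically with featureCounts and Gencode version 25 and not normalized. Each of the 12 columns was assigned by its name to a sample, and all held the same values, so that 1 profile with 22720718 counts was described and no test was run. Identifiers were matched without version suffix to GENCODE v44, and 56948 matched, carrying 99.8% of counts. Nuclear genes related to *MT-RNR2* have no name in that release and were not analysed here. RPKM used merged exon lengths.

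The members and gene lists were chosen with earlier results of these data known. All 37 mitochondrial genes are named, and from each list the 3 members with the most counts and those at 0, with the 5 most counted nuclear copies, except that some listed genes are not reported here by name. The low intestinal markers, *COL1A1* and the nuclear genes among the most abundant were named after their values were seen. Copies were aligned globally with Biopython 1.88, and 75-base windows were searched on both strands of the nuclear chromosomes without mismatches. Read start positions, window search and intervals were tested on simulated data. Alternatives were other denominators, lengths and subsets of genes. Python 3.11.15 with scipy 1.17.1 was used.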

Additional observations from a re-analysis of the deposited data

How the results depend on the processing

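No paired analysis was possible because the 12 samples carry identical counts, so no test between treatments, with or without a replicate block, other normalizations, filters or omitted replicates, was run. The columns were also identical over the 15252 genes with at least 10 counts, with 0 genes differing.

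The mitochondrial share of 10.4% was 8.75% for coding genes among protein-coding counts, 11.0% without the 10 most abundant nuclear genes, 10.8% with the nuclear copies and 7.93% without the rRNA genes. As shares of all counts, the rRNA genes took 2.50% and the tRNA genes 0.00703%, by construction less than of mitochondrial counts. *MT-ATP6* over *MT-ND6*, a ratio of 14.5 on annotated length, was 15.6 on unshared bases, 14.0 on effective length and 17.6 on read start positions. The ratio of heavy to light strand, 13.6, was 6.85 for coding genes, 12.5 without rRNA genes, 1.58 for tRNA genes and 3.59 per position for tRNA genes with a read start position. Without *MT-TL1*, which holds 38.4% of tRNA counts, the tRNA ratio turned to 0.81 per length and was 1.28 per position. Without *MTCO1P12*, the nuclear copies held 37277 counts in place of 79921.

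On the log2 scale, the median of complex V was −0.05 relative to complex IV and turned to 0.12 on unshared bases, 0.33 for summed counts over summed length, 0.089 on effective length and 0.44 on read start positions. Complex IV over complex I was 1.37, and 1.05 for summed counts, 1.19 on effective length, 1.13 on read start positions and 1.10 without *MT-ND6*. Complex III over complex I was −0.03, and −0.29, −0.28, −0.38 and −0.30 under the same alternatives. The complex order on effective length and read start positions, the tRNA ratio per start position or without *MT-TL1*, the ratios between named genes, the nuclear comparison and the addition of copies were chosen after the data were seen.

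*MT-TL1* over *MT-RNR2*, 0.0298 on annotated length, turned to 2.13 on effective length, which leaves 1 base of *MT-TL1*. No nuclear protein-coding gene exceeded *MT-ND5* on annotated length, and 1 did on effective length. Both used merged exon lengths, which lower the nuclear values where only shorter transcripts are made. Counting error, with reads taken as independent, was small for all coding genes, and the spread between libraries was not measured.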
